A study of Mus musculus with 194 samples.

Results

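The clustered protocadherins are 57 of the 21627 protein-coding genes in the gene table used here (RefSeq, GRCm38.p6), chosen as every symbol that begins with Pcdha, Pcdhb or Pcdhg. They lie on mouse chromosome 18 in 3 subclusters. The alpha subcluster holds 14 genes (chr18:36930285-37188897, 258.6 kb), the beta subcluster 22 genes (chr18:37264998-37521419, 256.4 kb) and the gamma subcluster 21 genes (chr18:37661775-37841873, 180.1 kb). The cluster spans 912 kb in all, with 76.1 kb between alpha and beta and 140 kb between beta and gamma. The gene table gives spans without strand or exons, so a start is the lower coordinate of a span and no exon, intron or UTR is named.

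Protocadherins of the cluster are cell adhesion proteins that bind their own kind on another membrane. Each gene of alpha and gamma adds a variable exon, with a promoter of its own, to constant exons that the whole subcluster shares, whereas beta genes lack constant exons. CTCF and cohesin bring chosen promoters to distant enhancers, and a neuron uses a small, largely random set of the variable genes, by which its branches tell themselves from those of other neurons. The last genes of alpha and gamma (Pcdhac1, Pcdhac2, Pcdhgc3, Pcdhgc4 and Pcdhgc5) form the c-type, which is used more evenly across neurons.

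The study recorded where a transposase inserted a reporter transposon in brain, a method called calling cards. Newborn mice (postnatal day 0 to 1) received the parts in adeno-associated virus, and in the self-reporting transposon (SRT) libraries insertions were read from cortex RNA. The 194 GEO samples make 47 tables, for 46 animals in 11 groups and for N2a, a mouse neuroblastoma cell line whose 3 experiments share 1 table. The animal was the replicate, and the labels state no litter or cage, so p-values measure the spread between these animals.

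Syn1Cre and GFAPCre are named after Cre driver lines used for neurons and for astrocytes, and Syn1CreNeg and GFAPCreNeg are their Cre-negative groups, with 6 animals in each of these groups. C57bl6J (2 animals) had viruses that need no Cre. Syn1Cre animals whose labels add SP1, a transcription factor, were taken on postnatal day 28 (P28, 4 animals) or 10 (P10, 3 animals), but what their SP1 construct is made of is not described. BrokenHeart (3 animals) was read from cortical DNA by inverse PCR. Rbp4Cre_TRAP (4 animals) came from whole forebrain with a Cre line used for deep-layer cortical neurons. Frontflip, a further construct that the labels only name, was used in GFAPCre mice (3 animals) and in Cre-negative mice (3 animals). Ages at collection are given for the SP1 groups, so that age and construct cannot be told apart when these are set against Syn1Cre.

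A level is the number of insertions in a region, scaled to a table total of 1000000 insertions and written as CPM. Tables held between 443158 and 1364948 insertions in Syn1Cre, 600443 to 1505413 in GFAPCre, 97519 to 556145 in Syn1CreNeg and 208057 to 597230 in GFAPCreNeg. The range was 108965 to 577609 in SP1 P28, 86842 to 95331 in SP1 P10, 1545951 to 2186743 in C57bl6J and 42511 to 98197 in BrokenHeart. The other tables held 24408 to 57014 in Rbp4Cre_TRAP, 160631 to 205559 in Frontflip GFAPCre, 2341 to 9601 in the Frontflip Cre-negative group and 806653 in N2a. Values of the Frontflip Cre-negative group are too sparse to compare. Fewer labelled cells of a type and fewer insertions per cell cannot be told apart in these bulk tables. Insertions around the 8 genes of a fixed astrocyte list summed to 1963 CPM in Syn1Cre animal 5 against 587 to 824 in the other Syn1Cre animals, to 971 in SP1 P28 animal 4 against 1746 to 2163 in the other P28 animals, and to 2966 in GFAPCreNeg animal 6 against 1441 to 1732 in the others of its group. Results that turn on these animals are given with and without them.

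Insertions in the cluster were concentrated at the far ends of alpha and gamma. The 46 animals together had 5701 insertions from the first start to the last end, at 1045 distinct positions, of which 459 were seen in 1 animal and 90 in at least 10 animals. The 10 most used positions held 17.5% of the insertions. Of the 92 windows of 10 kb that cover the cluster, 19 held no insertion and 55 held at most 10, while the 10 fullest windows held 75.1% of the 6263 insertions counted in windows. The 26 alpha windows held 2127 insertions, the 27 beta windows 214, the 19 gamma windows 2963 and the 20 windows between subclusters 959.

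**Figure D1:**
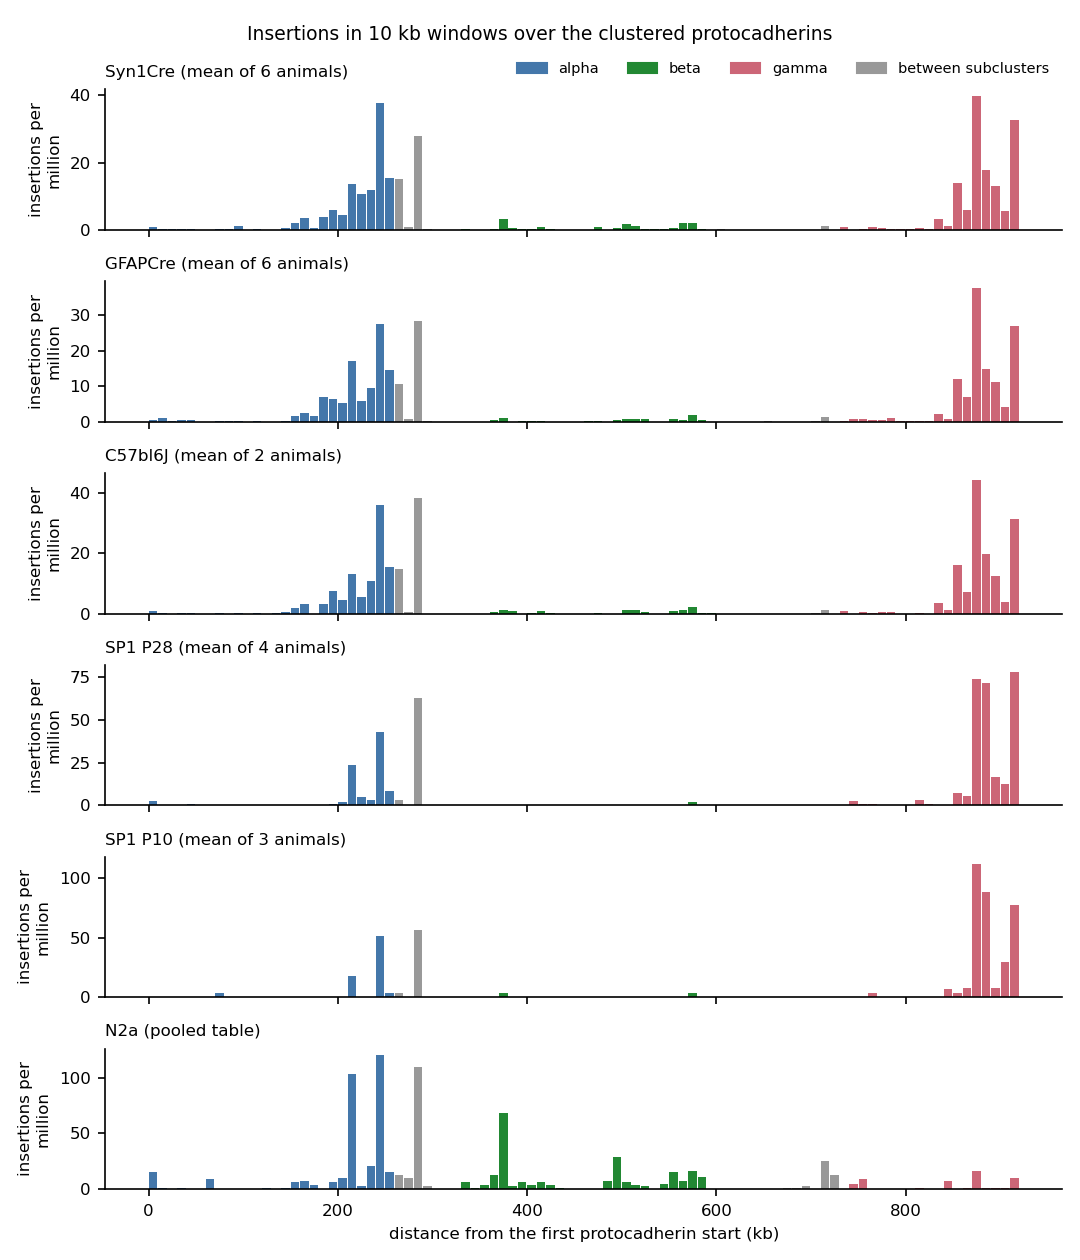
Mean CPM in each 10 kb window (vertical axis, with its own scale per row) against distance from the first protocadherin start in kb, for 5 groups of animals and the N2a table. In the animals the tall bars stand at the far ends of alpha and gamma and in the gap after alpha, and the last bar, coloured as gamma, lies mostly beyond the gamma end, whereas N2a also has tall bars over beta.

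Each member was counted in an interval of its own, from its start to the start of the next member, since the spans of alpha and of gamma genes overlap. The c-type genes Pcdhac1, with 575 insertions, and Pcdhac2, with 1411, together held 94.3% of the insertions of the alpha members on 38.2% of their length, or 20.1 per kb. The 12 other alpha genes held 120 insertions, 0.751 per kb, with a lowest of 1, a median of 5 and a highest of 59 in the long interval of Pcdha12. The 22 beta genes held 211 insertions, 0.823 per kb, led by Pcdhb20 with 37, Pcdhb3 with 24 and Pcdhb14 with 21. How reads were placed that match several of these similar genes is not given in the sources used here, so counts of single beta and variable gamma genes are uncertain.

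In gamma the 3 c-type genes held 1037 insertions, 43.2% of the subcluster's on 19.7% of its length. The other 18 gamma genes held 1362, of which 1253 were counted in the interval of Pcdhga12, the last variable gene before the c-type. That interval is 40.83 kb long, and 69.3% of its insertions (868) lay in the 10 kb before the start of Pcdhgc3. The next variable gamma genes, Pcdhga6 with 22 and Pcdhga11 with 19, were far below it. Per kb of interval, Pcdhgc3 came first with 36.9 insertions, followed by Pcdhac2 with 31.2, Pcdhga12 with 30.7, Pcdhgc5 with 28.5, Pcdhgc4 with 17.9 and Pcdhac1 with 10.7. As a median over the Syn1Cre and GFAPCre animals the leading levels were 1.47 CPM per kb in Pcdhac2, 1.34 in Pcdhga12, 1.34 in Pcdhgc3, 1.16 in Pcdhgc5 and 0.559 in Pcdhac1. The lowest members cannot be ranked, because many share a median of 0.

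**Figure D2:**
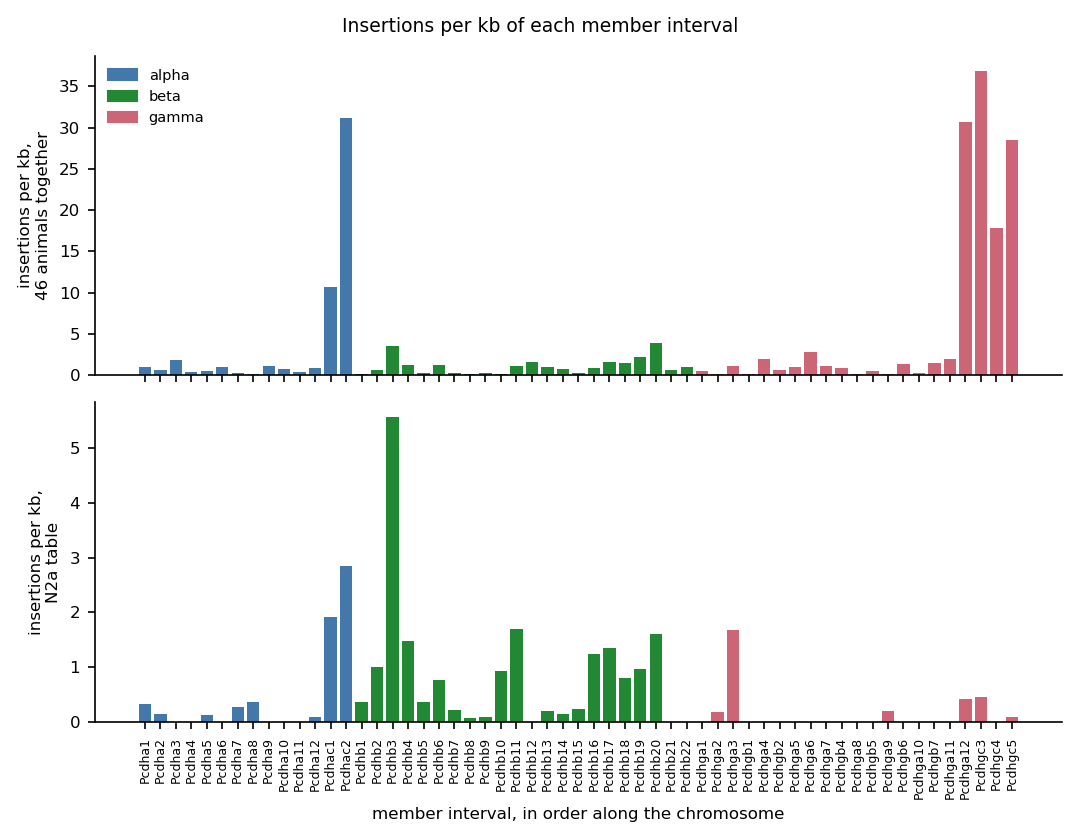
Insertions per kb of each member interval, in order along the chromosome, for the 46 animals together (upper row) and for the N2a table (lower row). The animals' bars are high in Pcdhac1, Pcdhac2, Pcdhga12, Pcdhgc3, Pcdhgc4 and Pcdhgc5, while the N2a bars are high in Pcdhb3, Pcdhac2 and Pcdhac1 and low in the gamma c-type.

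Where the insertions lay against gene starts differed between subclusters. In beta 71.3% of the Syn1Cre insertions, 60.4% of the GFAPCre insertions and 82.9% of the C57bl6J insertions fell within 1 kb of a member's start, a range that covers 16.8% of beta. In gamma the share was 24.4% in Syn1Cre, 26.2% in GFAPCre and 20.8% in C57bl6J, near the 22.8% of the length that lies so close to a start. In alpha 6.82% of the Syn1Cre insertions lay within 1 kb of a start, which covers 10.4% of the length.

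Some positions were used in many animals. The leading one, chr18:37819562, lies 16 bp after the start of Pcdhgc5 and held 129 insertions from 35 animals. The next, chr18:37801124, lies in the 10 kb before Pcdhgc3 and held 126 insertions from 27 animals. Another, chr18:37216917, lies in the gap between alpha and beta and held 112 insertions from 30 animals. Its window (chr18:37210001-37220000) starts 21.1 kb past the alpha end and ends 45.0 kb before the first beta gene.

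Beta had a far lower level than alpha and gamma in Syn1Cre, GFAPCre and their Cre-negative groups. In GFAPCreNeg alpha (57.7 to 83.8 CPM) also lay below gamma (99.4 to 207) in every animal. Insertions spread evenly along the genome would give 98.3 CPM in alpha, 97.5 in beta and 68.5 in gamma. Syn1Cre animals had 113 ± 12.7 CPM in alpha (SD, n = 6), 15.3 ± 1.66 in beta and 107 ± 15.5 in gamma. Against the even spread these are ratios of 1.15, 0.157 and 1.57. Among the 10214 windows of 250 kb along the genome, the density of Syn1Cre insertions placed alpha at percentile 70.1, beta at 13.4 and gamma at 79.2.

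C57bl6J had 104 ± 12.3 CPM in alpha (SD, n = 2), with 95.1 and 112 in its animals. It had 7.76 and 13.3 in beta and 117 and 115 in gamma. The gamma c-type share was 40.4% ± 0.102 of the gamma insertions in C57bl6J (SD, n = 2) and 39.8% ± 6.12 in Syn1Cre (SD, n = 6). The C57bl6J alpha and gamma levels lay within the Syn1Cre range, and its beta values were at most the lowest Syn1Cre value of 13.3 after rounding.

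**Figure D3:**
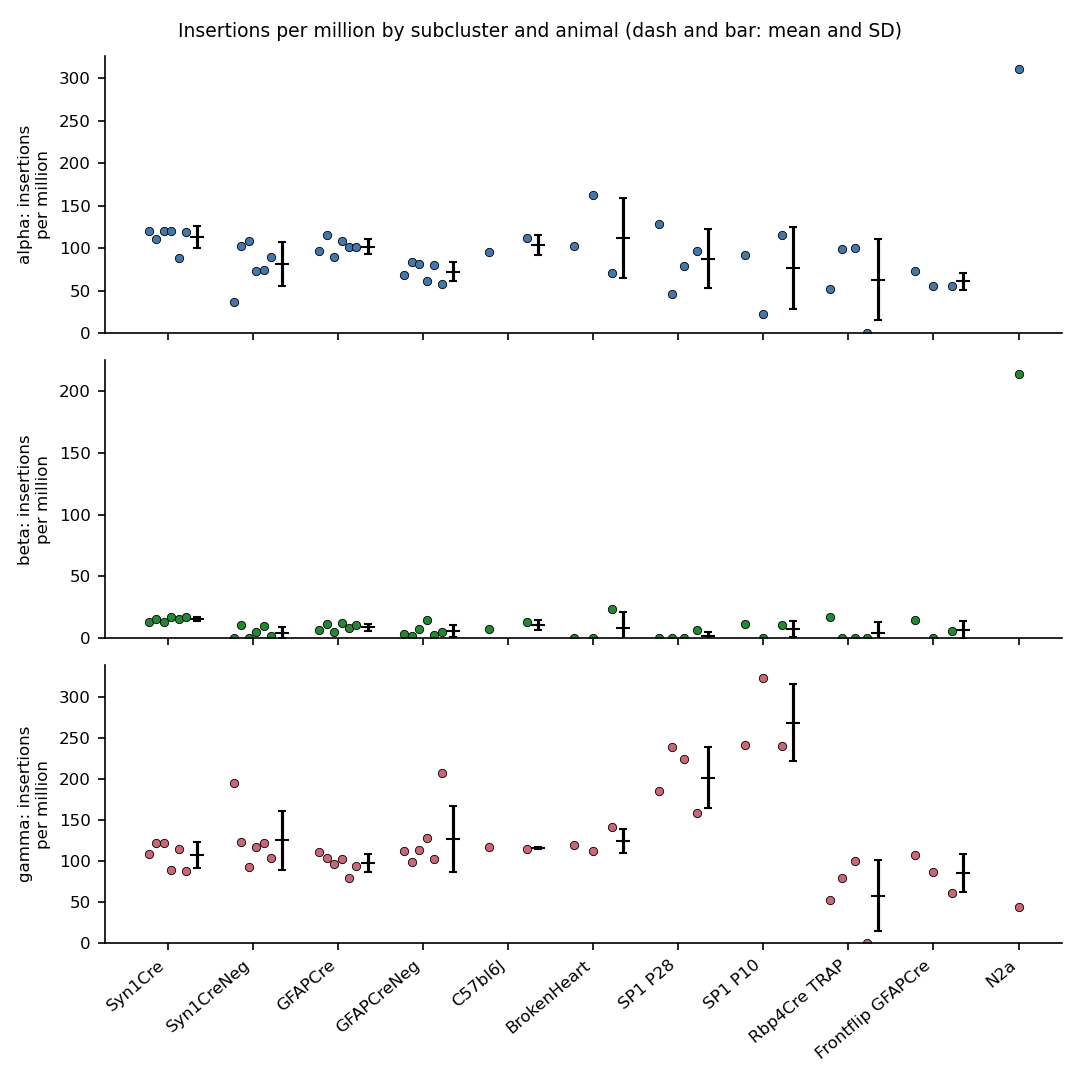
CPM in alpha, beta and gamma (vertical axes) in every animal, with the group mean as a dash and the SD as a bar. The SP1 animals sit at 159 to 323 in gamma, above the Syn1Cre animals at 87.4 to 122. N2a sits above the group means shown in alpha and beta and below them in gamma.

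The comparison of SP1 with Syn1Cre animals asks where insertions differ in the animals labelled with this factor. The gamma subcluster was higher at both ages, and the gain stood at the starts of its 3 c-type genes. Beta held 4 insertions at P28, all in 1 animal, and alpha as a whole did not pass the test at either age. Both comparisons use the same Syn1Cre animals. No GEO sample holds parts of both SP1 and other Syn1Cre animals, so a pool effect cannot be told apart from the group here.

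Gamma levels at P28 were 185, 239, 225 and 159 CPM, and at P10 they were 242, 323 and 241. Syn1Cre animals ranged from 87.4 through a median of 112 to 122, so neither SP1 group overlapped them. Gamma was higher by 1.10 on the log2 scale at P28 (SE 0.18, adjusted p = 5.6e-05) and by 1.51 at P10 (SE 0.22, adjusted p = 1.82e-05), in edgeR's quasi-likelihood test with Benjamini-Hochberg adjustment over 250 kb windows and the 3 subclusters. Of all features tested 49.8% were called at P28 (25.3% higher and 24.4% lower) and 32.3% at P10 (16.6% higher and 15.7% lower). At P28 2 of 3 subclusters were called, beta among them on 4 insertions in P28 animal 4, and at P10 1 of 3. The member medians were -0.04 and -0.39 against -0.10 and -0.19 over all features. The scaling moves these medians: with the table's total in place of TMM factors the median of all features was -0.32 at P28 and -0.36 at P10, and the gamma values were 0.85 and 1.34. With the total, 1641 features were called higher and 3100 lower at P28, against 2231 and 2150 with TMM. At P10 the same split was 1258 higher and 1963 lower, against 1516 and 1435.

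Without SP1 P28 animal 4 the P28 gamma difference was 1.29, and without Syn1Cre animal 5 it was 1.13 at P28 and 1.53 at P10. Gamma's density stood at percentile 91.5 of the 250 kb windows at P28 and 96.0 at P10. The c-type share of gamma insertions was 33.9% to 49.0% in Syn1Cre animals, 53.8% to 70.3% at P28 and 65.2% to 69.0% at P10. The SP1 ranges did not overlap that of Syn1Cre, and the difference was not tested. The share within 1 kb of a member's start was 20.6% to 29.5% in Syn1Cre animals, 52.2% to 65.1% at P28 and 51.7% to 61.9% at P10.

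The SP1 insertions stood in piles around 3 starts. Within 1 kb of the start of Pcdhgc3, a gene known for its part in dendrite branching, P28 animals had 51.7, 45.9, 36.4 and 31.2 CPM and P10 animals 69.1, 89.1 and 31.5. Syn1Cre animals had 6.25, 9.28 and 15.7 as lowest, median and highest there. Every SP1 animal lay above every Syn1Cre animal.

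At the start of Pcdhgc4, which is known to keep neurons alive, P28 animals had 25.9, 27.5, 66.8 and 31.2 CPM and P10 animals 34.5, 44.6 and 62.9. Syn1Cre animals ranged from 0.733 through 6.71 to 10.7. At the start of Pcdhgc5, whose protein binds GABA-A receptors, P28 animals had 30.2, 45.9, 24.3 and 20.8, P10 animals 46.1, 33.4 and 31.5, and Syn1Cre animals ranged from 3.58 through 7.13 to 11.3. Again no SP1 animal overlapped Syn1Cre at either start. These 2 kb segments were not part of the fits and have no test of their own. They were chosen after their values were seen, and no share over other gene starts is given beside them. The P28 value of 27.5 at Pcdhgc4 equals the floor of 3 insertions. So do the P10 values of 34.5 at Pcdhgc4, 33.4 and 31.5 at Pcdhgc5 and 31.5 at Pcdhgc3.

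The piles lay mostly on the low-coordinate side of Pcdhgc3 and Pcdhgc4. Pooled over P28 animals, 35 insertions lay in the 1 kb before the Pcdhgc3 start and 6 in the 1 kb from it. For Pcdhgc4 these numbers were 31 and 7. At Pcdhgc5 they were 12 and 16, and 16 P28 insertions shared the position 16 bp after its start. An interval that runs from start to start therefore holds the pile of the gene after it: of the P28 insertions counted for Pcdhgc3, 67.4% lay in the 1 kb before Pcdhgc4.

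**Figure D4:**
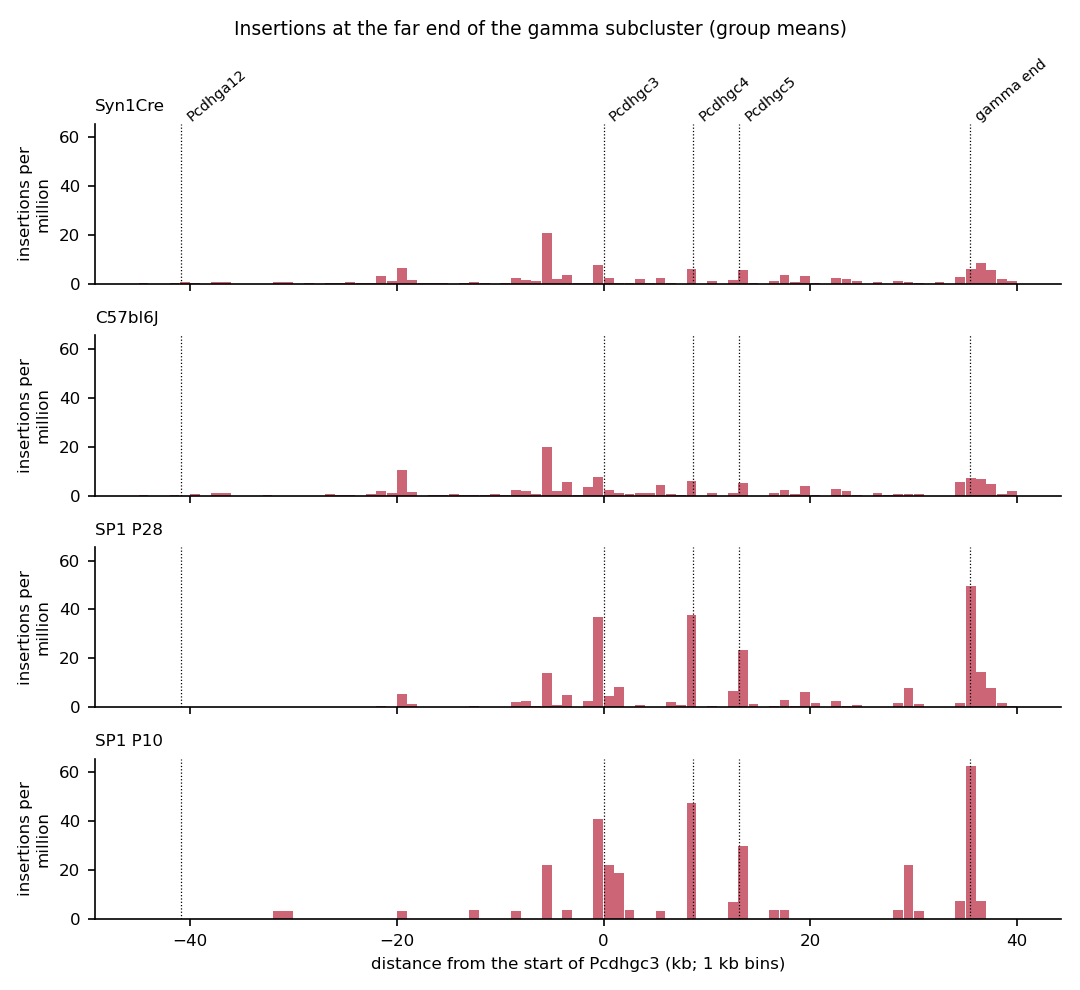
Mean CPM in 1 kb bins (vertical axis) against distance from the start of Pcdhgc3 in kb, with dotted lines at member starts and at the gamma end. The SP1 rows have tall bars at the starts of Pcdhgc3, Pcdhgc4 and Pcdhgc5 and just past the gamma end, 35.463 kb after the Pcdhgc3 start, while Syn1Cre and C57bl6J have their tallest bar, at 20.7 and 20.0 CPM, in the bin at -6 kb.

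At this end the windows with the gamma c-type starts were called higher at both ages. Of the gamma intervals past the low-count filter only that of Pcdhgc3 was called. Of the 57 members 5 passed the low-count filter at both ages (Pcdhac1, Pcdhac2, Pcdhga12, Pcdhgc3 and Pcdhgc5), and the other 52 were too sparse to test. At P28 3 of these 5 were called, 1 higher and 2 lower, against 51.3% of all gene intervals tested (26.1% higher and 25.2% lower). At P10 2 of 5 were called, 1 higher and 1 lower, against 40.7% (19.5% and 21.2%). These shares are near the background. With the total in place of TMM the split over all gene intervals was 4999 higher and 1225 lower at P28, against 3139 and 3023, and 3628 and 1148 at P10, against 2502 and 2721.

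In the Pcdhgc3 interval P28 animals had 43.1, 55.1, 72.9 and 31.2 CPM, P10 animals 57.6, 111 and 62.9, and Syn1Cre animals 7.33, 13.4 and 18.1 as lowest, median and highest. The groups did not overlap. The interval was higher by 1.27 (SE 0.30, adjusted p = 0.000983) at P28 and by 2.02 (SE 0.41, adjusted p = 0.000296) at P10, log2 values from edgeR's quasi-likelihood test, and by 1.75 and 2.57 without TMM. Pcdhgc4 missed the low-count filter, and without the filter its interval was also called higher, by 2.44 (SE 0.54, adjusted p = 0.000151) at P28 and 2.89 (SE 0.77, adjusted p = 0.00213) at P10. Its P28 animals had 8.62, 36.7, 6.07 and 22.5 CPM, its P10 animals 34.5, 11.1 and 42.0, and Syn1Cre animals 0.781 to 4.51 with a median of 2.79.

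Pcdhgc5 and Pcdhga12 were not called. The Pcdhgc5 interval had 56.1, 36.7, 79.0 and 32.9 CPM at P28 and 69.1, 100 and 52.4 at P10, against 15.6 to 40.3 in Syn1Cre with a median of 25.9, and it differed by 0.39 (SE 0.30) at P28 and 0.97 (SE 0.42, adjusted p = 0.0666) at P10. The Pcdhga12 interval had 60.4, 91.8, 66.8 and 72.7 at P28 and 80.6, 89.1 and 83.9 at P10, against 50 to 71.6 in Syn1Cre with a median of 58.3. Its differences were -0.20 and -0.03. Within this interval the 1 kb before Pcdhgc3 held 45.5% of its insertions at P28 and 47.8% at P10, against 12.9% in Syn1Cre. The part more than 10 kb before Pcdhgc3 held 7.93 ± 5.42 CPM at P28 (SD, n = 4) and 14.3 ± 15.9 at P10 (SD, n = 3). Syn1Cre had 19.2 ± 5.02 there (SD, n = 6). The ranges were 0 to 12.1 at P28, 0 to 31.5 at P10 and 10.1 to 24.8 in Syn1Cre, which overlap.

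Of the 92 windows of 10 kb, 8 were tested at P28 and 5 of them called, 4 higher and 1 lower, against 46.5% of all windows tested (25.7% higher and 20.8% lower). At P10 11 were tested and 3 called, 2 higher and 1 lower, against 33.9% (13.5% and 20.4%). The lower 1, at 0 in every P10 animal, passed the low-count filter through Syn1Cre and gives no support. Over all windows at P10 2886 were called higher and 4341 lower with TMM, against 3548 and 2164 without. The window chr18:37810001-37820000, with the starts of Pcdhgc4 and Pcdhgc5, had 60.4, 82.6, 91.1 and 53.7 CPM at P28, 80.6, 78.0 and 105 at P10, and 13.3, 16.4 and 27.1 as lowest, median and highest in Syn1Cre. The SP1 animals were all above the Syn1Cre animals. This window was higher by 1.79 (SE 0.25, adjusted p = 5.12e-06) at P28 and 1.90 (SE 0.36, adjusted p = 0.000305) at P10.

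The window chr18:37800001-37810000, with the Pcdhgc3 start, had 73.3, 91.8, 60.7 and 71.0 CPM at P28, 115, 167 and 52.4 at P10, and 29.3 to 48.9 with a median of 40.3 in Syn1Cre. It was higher by 0.72 (SE 0.22, adjusted p = 0.0114) at P28, a call that DESeq2 did not make (adjusted p = 0.216). At P10 it was higher by 1.03 (SE 0.33, adjusted p = 0.0202), a call lost under DESeq2 (0.69, adjusted p = 0.109), without P10 animal 1 (1.00) and without P10 animal 2 (0.54). The window chr18:37840001-37850000 had 73.3, 91.8, 91.1 and 57.1 at P28 against 28.6 to 39.9 in Syn1Cre with a median of 32.0, a difference of 1.01 (SE 0.21, adjusted p = 0.000584) that DESeq2 also called (adjusted p = 0.0214) and that distinct positions did not (0.44, adjusted p = 0.256). Over the 46 animals 88.6% of that window's insertions lay beyond the gamma end and 40.4% in Diaph1, a formin gene that is no member and starts 1.73 kb past it. The part beyond gamma held 73.0 ± 13.7 CPM at P28 (SD, n = 4) against 29.8 ± 4.85 in Syn1Cre (SD, n = 6). Within Diaph1 alone the values were 12.2 ± 4.79 and 15.1 ± 5.4.

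In beta, P28 animals 1 to 3 had no insertion and animal 4 had 6.93 CPM, all 4 insertions of it in Pcdhb20. Syn1Cre animals had 13.3, 15.7 and 17.2 as lowest, median and highest, above every P28 animal. The difference was -1.83 (SE 0.56, adjusted p = 0.0115) in edgeR's quasi-likelihood test and -1.82 (SE 0.60, adjusted p = 0.0175) without the low-count filter, which beta passed through the Syn1Cre animals, where it is high. The call with the filter therefore gives no support. Without animal 4 every P28 table is at 0 and the floor of 3 insertions over these tables is 5.93 CPM, at least 2.59-fold lower than the Syn1Cre mean. Of the 22 beta genes 20 held an insertion in Syn1Cre and 1 at P28, in tables that differ in depth. At P10 beta had 11.5, 0 and 10.5 CPM from 2 insertions, and the pooled ratio to Syn1Cre was 0.471 (0.0562 to 1.75, exact 95% interval for counting error).

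Markers of other cells were also compared between these groups, and the astrocyte sums overlapped. Insertions around the 8 astrocyte genes summed to 971 to 2163 CPM at P28 and 860 to 1125 at P10, against 587 to 1963 in Syn1Cre. The P28 animal with beta insertions, animal 4, was the one with the lowest astrocyte sum. Its table was also the deepest at P28, with 577609 insertions against 108965 to 231909 in animals 1 to 3. None of the 8 genes was at 0 in any of these groups. The 5 microglia and endothelium genes summed to 119 to 160 at P28 and 178 to 262 at P10, against 67.1 to 113 in Syn1Cre, with Csf1r, Cx3cr1 and Cldn5 at 0 at P10. At P28 1 of 8 astrocyte genes (Gja1, 1.34) and 1 of 2 tested microglia and endothelium genes (Aif1, 0.76) were called higher. Mbp was among the oligodendrocyte genes called lower (-1.08), and 4 of 12 neuron genes were higher and 2 lower. Over all gene intervals tested at P28 26.1% were higher and 25.2% lower. At P10 Aif1 was higher (1.5), Slc1a2 (-0.98) and Mbp (-1.77) were lower, and 5 neuron genes were higher and 3 lower. Over all gene intervals tested at P10 19.5% were higher and 21.2% lower. The part of these cells in the beta and gamma differences was not tested.

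In alpha, P28 animals had 129, 45.9, 79.0 and 97.0 CPM and P10 animals 92.1, 22.3 and 115, against 88.0 to 120 in Syn1Cre with a median of 119. The groups overlapped. The differences were -0.04 (SE 0.18, adjusted p = 0.859) at P28 and -0.39 (SE 0.31, adjusted p = 0.362) at P10.

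Single alpha intervals were called lower, and these calls depend on the scaling. Pcdhac1 had 30.2, 9.18, 12.1 and 22.5 CPM at P28 against 19.9 to 33.7 in Syn1Cre with a median of 28.6, and differed by -0.87 (SE 0.31, adjusted p = 0.0217) with TMM but by -0.40 (adjusted p = 0.305) without. The call was also lost without P28 animal 2 (-0.76), 3 (-0.74) or 4 (-0.98). Pcdhac2, needed for the even spacing of serotonin axons, had 94.9, 36.7, 66.8 and 71.0 against 60.9 to 93.0 with a median of 82.6. It differed by -0.65 (SE 0.19, adjusted p = 0.0064) with TMM and by -0.18 (adjusted p = 0.475) without. Both intervals overlapped between the groups.

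At P10 Pcdhac1 rested on 1 insertion, with 0, 0 and 10.5 CPM. It passed the low-count filter through the Syn1Cre animals, where it is high, so its call gives no support. Its pooled ratio to Syn1Cre was 0.13 (0.00326 to 0.733, exact 95% interval for counting error). Pcdhac2 was not called at P10 (-0.77, adjusted p = 0.0527).

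At the end of alpha 2 windows were called at P28. The gap window chr18:37210001-37220000 had 81.9, 73.4, 36.4 and 60.6 CPM at P28 against 15.9, 24.7 and 42.9 as lowest, median and highest in Syn1Cre, with animal 3 inside the Syn1Cre range. It was higher by 0.95 (SE 0.30, adjusted p = 0.0138), a call lost without P28 animal 1 (0.86) and under DESeq2 (0.66, adjusted p = 0.117). The last alpha window, chr18:37180001-37190000, had 8.62, 9.18, 6.07 and 8.66 against 6.77 to 18.7 with a median of 16.8 and was lower by 1.08 on the log2 scale (SE 0.43, adjusted p = 0.0447), a call lost when any 1 P28 animal was left out. At P10 the window chr18:37160001-37170000 was at 0 in all 3 animals, at least 1.09-fold lower than the Syn1Cre mean of 12, and its call was lost when any 1 P10 animal was left out. It passed the low-count filter through the Syn1Cre animals, where it is high, so its call gives no support.

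Between P28 and P10 no member difference was called. By edgeR's quasi-likelihood test 0 of 2 subclusters, 0 of 1 window and 0 of 1 gene interval passed, while 7.30% of 250 kb features, 22.3% of windows and 11.3% of gene intervals did. At an unadjusted p under 0.05 there were 1, 0 and 0, and DESeq2 called 0 of each. Gamma differed by -0.49 (SE 0.22, adjusted p = 0.168) and alpha by 0.28 (SE 0.41, adjusted p = 0.726), P28 over P10. P28 animals 2 to 4 shared GEO samples with P10 animals, and P28 animal 1 did not. The gamma range at P28, 159 to 239, lay just below that at P10, 241 to 323.

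The comparison of Syn1Cre with GFAPCre sets insertions labelled through a neuronal driver against those labelled through an astrocytic one. No subcluster passed the test, and beta had the largest difference of the 3. Beta levels in Syn1Cre ran from 13.3 through 15.7 to 17.2 CPM and in GFAPCre from 5.00 through 9.20 to 12. The groups did not overlap, and the difference was 0.70 (SE 0.22, unadjusted p = 0.00555), which did not pass after adjustment (adjusted p = 0.0658 in edgeR's quasi-likelihood test). These groups share no GEO sample either, so pool and driver line cannot be told apart.

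Alpha differed by 0.10 (SE 0.09, adjusted p = 0.501) and gamma by 0.04 (SE 0.11, adjusted p = 0.861), with GFAPCre at 102 ± 8.77 and 97.8 ± 10.6 CPM (SD, n = 6). By edgeR 0 of 3 subclusters, 0 of 10 windows and 0 of 5 gene intervals were called, against 6.52%, 2.77% and 2.17% of all features tested. At an unadjusted p under 0.05 there was 1 of each kind, and DESeq2 called 0 of each. Over all 250 kb features 317 were called higher and 271 lower, against 400 and 214 without TMM. The interval at an unadjusted p under 0.05 was Pcdhac2, with 60.9 to 93.0 CPM in Syn1Cre and 58.8, 64.2 and 66.4 as lowest, median and highest in GFAPCre, a difference of 0.31 (SE 0.11, adjusted p = 0.129). Of the beta genes 20 of 22 held an insertion in Syn1Cre and 18 of 22 in GFAPCre.

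Of the 11 tested genes of the neuron list 5 were higher in Syn1Cre: Dlx1 (2.54), Gad2 (1.96), Dlx2 (1.84), Gad1 (1.81) and Bcl11b (0.36, all log2). The first 4 are genes of inhibitory neurons. Of the 8 astrocyte genes 0 passed in edgeR, with sums of 788 to 1632 CPM in GFAPCre and 587 to 1963 in Syn1Cre, where the highest value is that of animal 5. Without this animal the subcluster differences were 0.12 in alpha, 0.68 in beta and 0.00 in gamma.

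Against the Cre-negative animals Pcdhac2 was called higher in both Cre lines, and gamma did not pass in either. No sequencing pool holds both Syn1Cre and Syn1CreNeg animals, so a pool effect cannot be told apart from the group there. Pcdhac2 levels ran from 60.9 through 82.6 to 93.0 CPM in Syn1Cre and from 27.9 through 51.1 to 92.4 in Syn1CreNeg, which overlap. They ran from 58.8 through 64.2 to 66.4 in GFAPCre and from 36.8 through 45.6 to 54.6 in GFAPCreNeg, which do not. The differences were 0.66 (SE 0.19, adjusted p = 0.00775) and 0.49 (SE 0.14, adjusted p = 0.0268) in edgeR's quasi-likelihood test. With distinct positions neither was called (0.43, adjusted p = 0.0655, and 0.38, adjusted p = 0.173), and the GFAPCre call was also lost under DESeq2 (adjusted p = 0.071) and without the low-count filter (adjusted p = 0.0952).

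Pcdhac2 was 1 of 4 members called in each Cre line, against 30.9% of gene intervals for Syn1Cre, near which its count lies, and 7.97% for GFAPCre. The member medians were 0.11 and 0.27 against 0.02 in both for all intervals. Of the 10 kb windows 2 of 4 were called for Syn1Cre, against 47.6%. They were chr18:37170001-37180000, which lies 26.3 to 36.3 kb after the Pcdhac2 start (0.89, SE 0.27, adjusted p = 0.0107), and chr18:37840001-37850000 past the gamma end (1.02, SE 0.29, adjusted p = 0.00641). For GFAPCre 0 of 5 windows were called by edgeR, with 1 at an unadjusted p under 0.05 and 0 by DESeq2, against 9.28%.

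Alpha levels ran from 37.2 through 81.7 to 109 CPM in Syn1CreNeg and from 57.7 through 74.6 to 83.8 in GFAPCreNeg, against 88.0 to 120 in Syn1Cre and 89.9 through 101 to 115 in GFAPCre. The GFAPCre groups did not overlap. Alpha was higher in GFAPCre by 0.38 (SE 0.11, adjusted p = 0.0338), 1 of 2 subclusters tested against 8.37% of features. This call was lost under DESeq2 (0.37, adjusted p = 0.0985) and when GFAPCre animal 2, 4, 5 or 6 or GFAPCreNeg animal 1, 4 or 6 was left out (0.33 to 0.39). GFAPCre animals 4 to 6 share sequencing pools with GFAPCreNeg animals 1, 3, 4 and 6, and among these, with the pool as a block, the difference was 0.51 (adjusted p = 0.182). In Syn1Cre the alpha difference of 0.32 (SE 0.14, adjusted p = 0.076) did not pass, but it did when Syn1Cre animal 5 (0.37), Syn1CreNeg animal 2 (0.37) or Syn1CreNeg animal 3 (0.38) was left out.

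Gamma ran from 92.4 through 119 to 195 CPM in Syn1CreNeg and from 99.4 through 113 to 207 in GFAPCreNeg, both overlapping their Cre groups. It differed by -0.38 in both lines (SE 0.15 in each, adjusted p = 0.0511 for Syn1Cre and 0.116 for GFAPCre), and by -0.27 without Syn1CreNeg animal 1 and -0.25 without GFAPCreNeg animal 6. For Syn1Cre it passed without Syn1Cre animal 2, 3 or 5 or Syn1CreNeg animal 3 (-0.41 to -0.39). For Syn1Cre 0 of 2 subclusters tested passed in edgeR, against 36.4% of features, with 2 at an unadjusted p under 0.05 and 0 by DESeq2. The split of all features was 1329 higher and 1616 lower with TMM and 2730 and 1065 without, and for GFAPCre 176 and 512 with TMM and 479 and 389 without.

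The beta subcluster fell below the low-count filter in both comparisons with Cre-negative animals. Without the filter it was higher in Syn1Cre than in Syn1CreNeg by 1.38 (SE 0.43, adjusted p = 0.0153), with 13.3 to 17.2 CPM against 0 to 10.3 and a Syn1CreNeg median of 3.76. These groups did not overlap, but Syn1CreNeg held 9 beta insertions in all. The floor of 3 insertions was 27.9, 30.8 and 25.2 CPM in Syn1CreNeg animals 1 to 3, above every Syn1Cre value. A level like that of Syn1Cre was therefore not measurable in these animals. GFAPCreNeg had 1.95, 4.08 and 14.8 as lowest, median and highest, across the GFAPCre range. Beta genes with an insertion numbered 5 of 22 in Syn1CreNeg and 10 of 22 in GFAPCreNeg, at lower depth than the Cre groups.

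Astrocyte loci differed between Syn1Cre and its Cre-negative group. All 7 astrocyte genes tested were lower in Syn1Cre than in Syn1CreNeg by edgeR, from -0.73 (Gfap) to -2.02 (Gja1), 2 of them (Gfap and Aldoc) not called by DESeq2, and the list's sum was 2030 to 2689 CPM in Syn1CreNeg. The neuron list had 5 of 9 higher and 1 lower, and of the oligodendrocyte genes Olig1 (-2.0) and Olig2 (-2.10), which are neighbours, were lower. In GFAPCre, against the label of that line, 2 of 8 astrocyte genes were lower than in GFAPCreNeg (Gja1 -1.20 and Slc1a2 -0.72) and 0 higher. In both Cre-negative groups the animal with the highest gamma level also had the highest astrocyte sum, 2689 and 2966. Their part in the protocadherin differences was not tested.

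**Figure D5:**
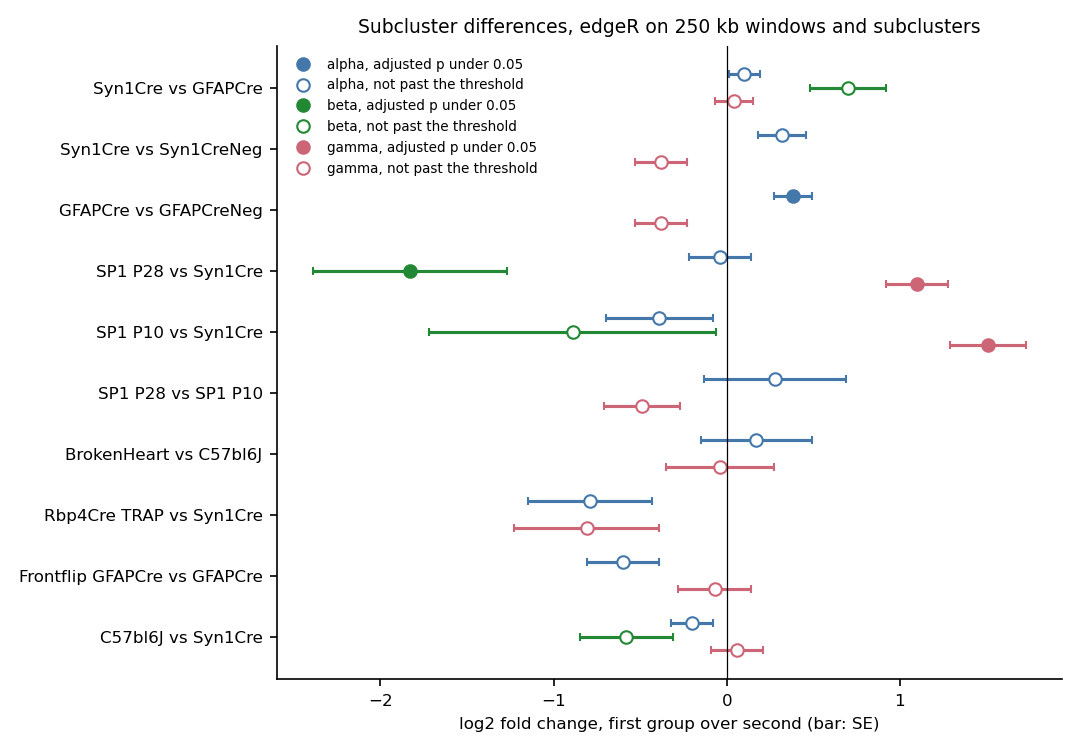
Log2 fold change of each subcluster with its standard error (horizontal axis, first group over second) in 10 comparisons from edgeR's quasi-likelihood test, with filled points at an adjusted p under 0.05. The filled points are alpha in GFAPCre against GFAPCreNeg, beta in SP1 P28 and gamma in both SP1 groups, and subclusters under the low-count filter have no point. The beta point rests on 4 insertions in P28 animal 4 and on a filter passed through Syn1Cre.

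The other groups showed smaller or sparser differences. C57bl6J against Syn1Cre differed by -0.20 in alpha (SE 0.12, adjusted p = 0.284), -0.58 in beta (SE 0.27, adjusted p = 0.175) and 0.06 in gamma (SE 0.15, adjusted p = 0.813). By edgeR 0 of 3 subclusters, 0 of 12 windows and 0 of 5 gene intervals were called, against 4.32%, 1.54% and 0.798%. At an unadjusted p under 0.05 there were 1, 1 and 2, and DESeq2 called 0 of each.

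BrokenHeart, read from DNA, differed from C57bl6J by 0.17 in alpha (SE 0.32, adjusted p = 0.728) and -0.04 in gamma (SE 0.31, adjusted p = 0.945). Its animals had 103, 163 and 70.6 CPM in alpha, 0, 0 and 23.5 in beta and 120, 112 and 141 in gamma. By edgeR 0 of 2 subclusters were called, against 30.9% of features, with 0 at an unadjusted p under 0.05 and 0 by DESeq2, and no cluster window or member interval passed the low-count filter, while 48.7% of the windows and 40.7% of the gene intervals tested elsewhere were called. On 24 BrokenHeart gamma insertions in all, single intervals had other levels than in C57bl6J. The Pcdhgc5 interval held 51.5, 81.5 and 94.1 CPM in BrokenHeart and 25.2 and 29.8 in C57bl6J, and the Pcdhga12 interval held 34.3, 10.2 and 0 against 64.9 and 67.3. Neither pair of groups overlapped. Without the low-count filter Pcdhga12 was lower by 2.69 on the log2 scale (SE 0.66, adjusted p = 0.00185), on 3 BrokenHeart insertions, and Pcdhgc5 was not called. The single position 16 bp after the Pcdhgc5 start held 5 insertions in 2 of the 3 BrokenHeart animals.

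Rbp4Cre_TRAP animals had 52.6, 99.3, 99.8 and 0 CPM in alpha and 52.6, 79.5, 99.8 and 0 in gamma. Animal 4 had no insertion in either, and its floor of 3 insertions is 123 CPM. They differed from Syn1Cre by -0.79 in alpha (SE 0.36, adjusted p = 0.316) and -0.81 in gamma (SE 0.42, adjusted p = 0.384). By edgeR 0 of 2 subclusters, 0 of 7 windows and 0 of 4 gene intervals were called, against 1.56%, 3.07% and 2.07%, with 1 of each at an unadjusted p under 0.05. DESeq2 called 0 of each. Of 12 neuron genes 3 were lower (Gad1, Dlx1 and Dlx2, genes of inhibitory neurons) and of 7 astrocyte genes 1 (Slc1a3, -2.67). Gad1 and Dlx2 were at 0 in every Rbp4Cre_TRAP animal. They passed the low-count filter through Syn1Cre, where they are high, so their calls give no support. The part of these neurons and astrocytes in the protocadherin levels was not tested.

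Frontflip GFAPCre animals had 73.0, 56.0 and 55.1 CPM in alpha, all below the GFAPCre range of 89.9 to 115, a difference of -0.60 (SE 0.21) that did not pass (adjusted p = 0.194). In gamma they had 107, 87.2 and 61.2 and differed by -0.07 (SE 0.21, adjusted p = 0.932). Of 8 astrocyte genes 2 were higher in Frontflip (Slc1a3 0.98 and Slc1a2 0.90), with sums of 1703 to 2466 CPM against 788 to 1632, and their part in the alpha levels was not tested. By edgeR 0 of 2 subclusters, 1 of 6 windows and 0 of 4 gene intervals were called, against 1.47%, 2.11% and 1.74%. The subclusters and the gene intervals had 1 each at an unadjusted p under 0.05, and DESeq2 called 0 of each. The window chr18:37840001-37850000 held 0, 0 and 12.2 against 18.3 to 31.2 in GFAPCre with a median of 29.1 and differed by -2.89 (SE 0.71, adjusted p = 0.0251) on 2 insertions, a call lost under DESeq2 and whenever 1 Frontflip animal was left out. The Frontflip split moved with the scaling, from 117 features higher and 11 lower with TMM to 99 and 56 without.

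N2a cells had another profile. The pooled table had 311 CPM in alpha (275 to 352, Wilson 95% interval for counting error), 214 in beta (185 to 249) and 43.4 in gamma (31.2 to 60.3). Among animals with more than 1 beta insertion the highest beta level was 17.2 CPM, in Syn1Cre, and no animal reached the N2a level of alpha. With 1 table and a cell line against tissue, no test was made. By density, alpha stood at percentile 92.4 of the 250 kb windows in N2a, beta at 85.3 and gamma at 55.1.

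Single N2a genes stood out within the subclusters. Pcdhb3 held 37 insertions (45.9 CPM) and Pcdhb20 held 15 (18.6 CPM), against 2.33 ± 1.68 and 2.13 ± 2.26 CPM in Syn1Cre (SD, n = 6). Pcdhac1 held 103 and Pcdhac2 129. Of these alpha insertions 37 lay in the 1 kb before the Pcdhac2 start. In gamma the c-type share was 17.1%, with 4 insertions in Pcdhgc3, 0 in Pcdhgc4 and 2 in Pcdhgc5. The floor of 3 insertions is 3.72 CPM in N2a, above the Syn1Cre mean of 2.60 in Pcdhgc4, so a lower level there was not detectable. The N2a table shared 4 of its 10 fullest windows with the animals, among them the gap window after alpha, with 89 insertions.

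The genes that regulate or relay protocadherins, in lists fixed with the members, had no call between the neuronal and astrocytic drivers. These lists hold 8 genes of promoter choice and DNA looping (such as Ctcf, Rad21 and Nipbl), 5 of silencing and methylation (such as Smchd1 and Dnmt3b) and 7 that act downstream of the protein's cytoplasmic part (such as Ptk2, Fyn and Wasf1). In Syn1Cre against GFAPCre 0 of 8, 0 of 3 and 0 of 7 tested genes passed in edgeR, with list medians of -0.27, 0.03 and -0.07 against 0.01 over all gene intervals. Against Syn1CreNeg 2 of 7 looping genes were lower, Stag1 (-0.85), a cohesin subunit, and Nipbl (-0.54), the cohesin loader. So were 2 of 7 downstream genes, Fyn (-0.46, not called by DESeq2) and Ptk2 (-0.45), both kinases, while 0 of 3 silencing genes passed. Of all gene intervals 30.9% were called in this comparison, so these counts are near the background. Against GFAPCreNeg 1 of 7 looping genes, Stag1 (-0.51), and 2 of 7 downstream genes, Fyn (-0.69) and Ptk2 (-0.35), were lower. Of all gene intervals 7.97% were called there.

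With SP1 the calls in these lists were all lower. At P28 1 of 8 looping genes, 0 of 4 silencing genes and 4 of 7 downstream genes were lower and 0 higher, while 25.2% of all gene intervals tested were lower and 26.1% higher. The downstream genes Abi2 (-1.03) and Nckap1 (-1.07), parts of the WAVE complex that drives actin branching, were also called without TMM. Nipbl (-0.66), Wasf1 (-0.50) and Ptk2 (-0.47) were not. At P10 2 of 8, 1 of 4 and 4 of 7 were lower, against 21.2% of all gene intervals. Among them Nipbl (-1.42), Abi2 (-1.58) and Wasf1 (-1.32) held without TMM. Smchd1 (-3.83, SE 0.77), a silencer of the cluster, was also called without TMM, but on few insertions. It passed the low-count filter through the Syn1Cre animals, where it is high, so its call gives no support. All 5 silencing genes together summed to 62.9 to 156 CPM at P10, in tables of at most 95331 insertions. Stag1 (-0.74) at P10 was not called without TMM.

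In the remaining comparisons few genes of these lists passed. Between P28 and P10 0 of 2 looping and 0 of 5 downstream genes passed. In BrokenHeart 1 of 2 looping genes, Nipbl (-1.18), and 1 of 6 downstream genes, Abi2 (-1.04), were lower than in C57bl6J. Of all gene intervals 40.7% were called there. In Rbp4Cre_TRAP 1 of 7 looping genes, Stag1 (-1.20), and 1 of 7 downstream genes, Fyn (-1.18), were lower than in Syn1Cre, against 2.07% called. DESeq2 did not make these 2 calls. Frontflip had 1 of 7 downstream genes lower, Wasf1 (-0.97), against 1.74% called. C57bl6J against Syn1Cre had 0 of 8, 0 of 5 and 0 of 7.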

How the data were processed

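The deposited tables list 1 insertion per line with its position, read count, strand and barcode, and the read count in each line is the authors' count. The submitters' processing notes name mm10, Novoalign and Bowtie2 without roles or versions, and how reads matching several genes were placed is not given in the sources used here. Lines were counted as insertions, scaled to a table total of 1000000 (CPM). Insertions off the main chromosomes were at most 0.0818% of any table. BrokenHeart positions were moved by 1 base, since they met SRT positions at that offset.

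Counts per 250 kb window (with the 3 subclusters), per 10 kb window and per gene interval (genes with 10 kb flanks, members from start to start) were tested genome-wide with edgeR's quasi-likelihood test, TMM scaling, its low-count filter and Benjamini-Hochberg adjustment over all features, at 0.05. Only the groups compared entered a fit. DESeq2, other scalings and filters, distinct positions, insertions of at least 2 reads and 50 kb windows were alternatives, and each animal was left out in turn. The tests were run first on simulated counts. Intervals are Wilson or exact at 95%, and floors are 3 insertions, and both cover counting error only, since PCR reads are not independent molecules. Versions were R 4.3.3, edgeR 4.0.16, limma 3.58.1, DESeq2 1.42.0, pandas 2.3.3, numpy 2.4.6, scipy 1.17.1 and matplotlib 3.10.9.

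The members and the gene lists (neuron, astrocyte, oligodendrocyte, microglia and endothelium, looping, silencing, downstream) were chosen with earlier results of these data known. The result of 1 list gene is not reported here. Named were the 3 subclusters, cluster windows past the threshold (up to 5 each way by p), member intervals past it (up to 10 each way), the c-type genes, the 5 members highest and lowest in median level per kb over Syn1Cre and GFAPCre, and list genes past the threshold, of which some are given as counts. Pcdha12, Pcdhb3, Pcdhb14, Pcdhb20, Pcdhga6, Pcdhga11, Diaph1, the 2 kb segments at starts and the recurrent positions were chosen after their values were seen. Replicate numbers did not pair animals: the correlation of deviations ran from -0.244 to 0.267 and no comparison had every pair above 0.1.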

Additional observations from a re-analysis of the deposited data

Results flagged for a closer look

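Within groups of 4 to 10 animals 111 sets of values were screened. In 19 of them an animal's gap to its nearest neighbour was large for the group's range. The cutoffs flag about 1 in 20 sets of normally distributed values. Many of these sets are sparse counts, and a set where 1 animal holds every insertion is flagged by construction. Some sets also share insertions, so the 19 cannot be read against that rate. In alpha the animal set apart was Syn1Cre animal 5, with 88.0 CPM from 39 insertions. In gamma it was Syn1CreNeg animal 1, with 195 CPM from 21 insertions (270 over the whole cluster, from 29), and GFAPCreNeg animal 6, with 207 from 43. The window with the Pcdhgc4 and Pcdhgc5 starts stood out in the same animals, at 37.2 CPM from 4 insertions and 52.9 from 11.

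In beta SP1 P28 animal 4 had 6.93 CPM, all of it in Pcdhb20 and from 4 insertions. Rbp4Cre_TRAP animal 1 had 17.5, all in Pcdhb3 and from 1 insertion. Pcdhb3 stood out in GFAPCreNeg animal 4 (4.94 CPM, 2 insertions). Pcdhb20 stood out in Syn1CreNeg animal 5 (7.18, 3 insertions) and GFAPCre animal 6 (2.93, 2 insertions).

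In Rbp4Cre_TRAP, single insertions set apart Pcdhgc3 and Pcdhgc5 in animal 2 (19.9 CPM each) and Pcdhgc4 in animal 3 (25.0). In alpha windows Syn1CreNeg animal 2 had 41.0 at chr18:37160001-37170000 from 4 insertions. Syn1Cre animal 1 had 51.8 at chr18:37170001-37180000 from 39, and Syn1Cre animal 5 had 6.77 at chr18:37180001-37190000 from 3.

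The N2a table, which enters no test, held 311 CPM in alpha, 214 in beta, 43.4 in gamma and 751 over the whole cluster.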

How the results depend on the processing

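The gamma rise in both SP1 groups kept its direction and call in every alternative run (leaving out 1 animal, 1.01 to 1.29 at P28 and 1.35 to 1.59 at P10). Beta at P28 passed the low-count filter through the Syn1Cre animals, where it is high, so its call with the filter gives no support. Where beta was tested the call was kept, from -6.39 to -1.51 leaving out 1 animal. Beta did not enter the test with distinct positions, with at least 2 reads or without any 1 Syn1Cre animal other than animal 5. Alpha in Syn1Cre against Syn1CreNeg passed without TMM (0.52), with 50 kb windows (0.44) and with 10 kb flanks (0.35), and gamma there with distinct positions (-0.55), with the replicate block (-0.43), with the label layout as a block (-0.46) and in animals 4 to 6 alone (-0.48). In GFAPCre against GFAPCreNeg alpha lost its call under DESeq2 (0.37), distinct positions (0.29), 50 kb windows (0.41), the replicate block (0.38) and the shared pools as a block (0.51), and gamma passed with distinct positions (-0.47). The replicate block reversed gamma in C57bl6J against Syn1Cre (-0.05), as did distinct positions (-0.21) and flanks (-0.04). Signs also turned in values that were not called: with distinct positions alpha in Syn1Cre against GFAPCre (-0.02), gamma in Frontflip (0.17) and gamma in BrokenHeart (0.34, also 0.06 without TMM and 0.31 with 50 kb windows). Leaving out 1 animal, alpha ran from 0.26 to 0.40 and gamma from -0.41 to -0.27 in Syn1Cre against Syn1CreNeg, and alpha from 0.33 to 0.43 and gamma from -0.44 to -0.25 in GFAPCre against GFAPCreNeg. Alpha ran from -0.23 to 0.08 at P28, -0.85 to 0.04 at P10, -0.15 to 0.70 between them and -0.40 to 0.29 in BrokenHeart, and gamma from -0.26 to 0.07 in Frontflip and -0.01 to 0.11 in C57bl6J.

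Counts of called windows and genes moved most with the filter and with distinct positions. With distinct positions Syn1Cre against Syn1CreNeg had 0 windows (of 2) and 0 genes (of 1), GFAPCre 0 genes (of 1), P28 1 window (of 5) and 1 gene (of 3), and Frontflip 0 windows (of 1) and 1 gene (of 0). With at least 10 insertions per window GFAPCre had 1 (of 0), P28 1, P10 6 (of 3), BrokenHeart 4 (of 0) and Rbp4Cre_TRAP 5 (of 0). With at least 2 reads P28 had 2, P10 1, Rbp4Cre_TRAP 2 and Frontflip 0. DESeq2 called 3 windows at P28, 0 in Frontflip and 0 genes in GFAPCre. Without TMM GFAPCre had 1 window, and without the low-count filter 0 genes, P10 4 (of 2) and BrokenHeart 1 (of 0). Leaving out 1 animal gave 3 to 6 windows and 2 to 3 genes at P28, 1 to 4 windows and 2 to 3 genes at P10, 0 to 1 windows and 0 to 1 genes in BrokenHeart and 0 windows in Frontflip. The cause of these moves was not tested. Tables of SP1 P10, BrokenHeart and Rbp4Cre_TRAP held at most 98197 insertions, which limits what could be detected there.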
